A study of Mus musculus with 8 samples.

Results

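The genes described here encode interferon-inducible GTPases of 2 families, the guanylate-binding proteins (GBPs) and the immunity-related GTPases (IRGs), in lung endothelial cells of mice. They are Gbp2, Gbp3, Gbp4, Gbp6 and Gbp7 of the GBP family and Irgm1, Irgm2, Igtp, Iigp1 and Ifi47 of the IRG family. They were chosen by symbol from the 34899 genes of the deposited table, and all 10 had a row there. RNA had been sequenced from cells sorted out of the lungs of female C57BL6 mice as CD45- CD31+, that is, without the common leukocyte antigen and with the endothelial adhesion molecule encoded by Pecam1. There were 4 libraries labelled HF and 4 labelled LF, and the series' design text gives 4 mice per group. The labels do not spell out HF and LF and give no age, diet composition or other treatment, and the series title speaks of obesity. The comparison asks how transcript levels in these cells differed between HF and LF mice.

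GBPs and IRGs are GTP-binding proteins whose transcription is switched on by interferons, most strongly by interferon gamma through its receptor and the kinases JAK1 and JAK2. Their products gather on the membranes of vacuoles that hold intracellular microbes and help to break them open. Within the IRGs, the regulators Irgm1, Irgm2 and Igtp sit on the cell's own membranes and hold the effector IRGs in the inactive state, while Iigp1 is such an effector. Endothelial cells respond to interferon gamma with these genes and with genes of antigen presentation.

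The 10 genes lie on 4 chromosomes of the mouse genome (GRCm38, GENCODE M21), and all are annotated as protein coding. Gbp7 (chr3:142530342-142550149), Gbp3 (chr3:142560026-142573209) and Gbp2 (chr3:142620602-142638008) lie in this order on the plus strand of chromosome 3, with the family gene Gbp2b between Gbp3 and Gbp2. Gbp4 (chr5:105115767-105139586) and Gbp6 (chr5:105270702-105293698) lie on the minus strand of chromosome 5. Chromosome 11 holds Irgm1 (chr11:48861968-48871683, minus strand), Ifi47 (chr11:49076587-49096974, plus strand), and the plus-strand neighbours Igtp (chr11:58199556-58207591) and Irgm2 (chr11:58199618-58222782). Iigp1 (chr18:60376027-60392634, plus strand) is on chromosome 18.

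Members of these families resemble each other, so reads can be hard to place. Of the 50-base stretches in Gbp6 transcripts, 70.7% also occur in another gene, and Gbp6 shares 1726 exon bases with the annotated gene Gm43302. For the other 9 genes that share of stretches was between 0.379% (Irgm1) and 12.7% (Gbp7). Igtp and Irgm2 share 162 exon bases on the same strand. The sources used here do not give how shared reads were counted or whether strand was used, so the level of Gbp6 is uncertain.

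Promoter sequence is shown because these genes have a common set of inducing signals and a similar pattern of levels across the libraries. RefSeq windows of GRCm38.p6, from 250 bases before to 50 bases after the start, were matched for 7 of the 10 genes (Gbp2, Gbp3, Gbp7, Irgm1, Irgm2, Igtp and Ifi47). The letters searched, on both strands, were GAAA, any 2 bases and GAAA again for an interferon-stimulated response element (ISRE), and TTCNNNGAA for a gamma-activated site (GAS), an element of promoters that respond to interferon gamma. Matches are in capitals, and each stretch is written 5′ to 3′ along the strand of the gene.
Gbp2: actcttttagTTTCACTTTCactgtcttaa
Gbp3: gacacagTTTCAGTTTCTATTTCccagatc
Gbp7: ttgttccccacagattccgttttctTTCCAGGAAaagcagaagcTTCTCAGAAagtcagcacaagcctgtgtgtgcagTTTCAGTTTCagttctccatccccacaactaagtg
Irgm1: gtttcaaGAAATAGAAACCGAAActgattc
Irgm2: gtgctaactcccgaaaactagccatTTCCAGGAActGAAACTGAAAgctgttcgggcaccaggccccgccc
Igtp: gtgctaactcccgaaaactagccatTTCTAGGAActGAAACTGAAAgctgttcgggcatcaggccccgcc

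The stretches are, in the same order, chr3:142620594-142620623 (+), chr3:142559992-142560021 (+), chr3:142530205-142530317 (+), chr11:48871428-48871457 (−), chr11:58214877-58214947 (+) and chr11:58199486-58199555 (+). The windows are placed on RefSeq starts, and GENCODE M21 differs for some genes: all 30 bases of the Irgm1 stretch and 22 of the 30 of the Gbp2 stretch lie in a GENCODE exon of the gene. The other 4 stretches hold 0 such bases. That of Irgm2 still lies inside the GENCODE gene, between its exons, because GENCODE starts Irgm2 upstream, at chr11:58199618. The ISRE letters occurred in the windows of 6 of the 7 genes, and in those of 3.99% of 27025 genes with a window. In Gbp3 and Irgm1 the capitals hold 2 overlapping matches. The GAS letters occurred in 3 of the 7 (Gbp7, Irgm2 and Igtp), against 9.55% of all genes. Neither set of letters is in the window of Ifi47. A match describes the letters only and is not evidence of binding.

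Igtp and Irgm2, the neighbouring IRGM regulators, have nearly the same promoter core at their RefSeq starts. Of the aligned bases of their printed stretches, 68 were identical and 2 were not, with 1 gap (97.1% identity). In both, the GAS letters are followed by 2 other bases and then by the ISRE letters. This arrangement, searched on both strands after it was seen in these genes, was in 5 of 32851 RefSeq windows (0.0152%). The 5 genes are Igtp, Irgm2 and the further IRG family genes Tgtp1, Tgtp2 and Gm12185.

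Libraries held 10631506 to 20781564 reads assigned to genes, and values below are the authors' normalised read counts, which are not scaled for gene length unless that is said. LF 1 and LF 2 stood apart from the other 6 libraries on the first principal component (36.1% of variance), at -56.4 and -50.9 against -6.79 to 39.6. LF 3 and LF 4 stood apart on the second (17.5%), at -38.5 and -34.2 against -1.41 to 29.6. The summed level of 14 endothelial markers was 156122 in LF 1 and 173711 in LF 2, and 214532 to 257845 in the other libraries. The leukocyte marker Ptprc was at 90.4 to 265 in all libraries, beside 19425 to 33236 for Pecam1. The counts of members are therefore also given with either pair of LF libraries left out.

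No member passed the test between HF and LF. For most of them, LF libraries lay both below and above the HF libraries. LF 4 was the highest library for all 10 genes and LF 1 the lowest for 9. All 10 had lower mean log2 levels in HF, with folds of HF over LF between 0.663 and 0.956. Fewer cells of a kind and less RNA per cell cannot be told apart in bulk RNA.

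**Figure D1:**
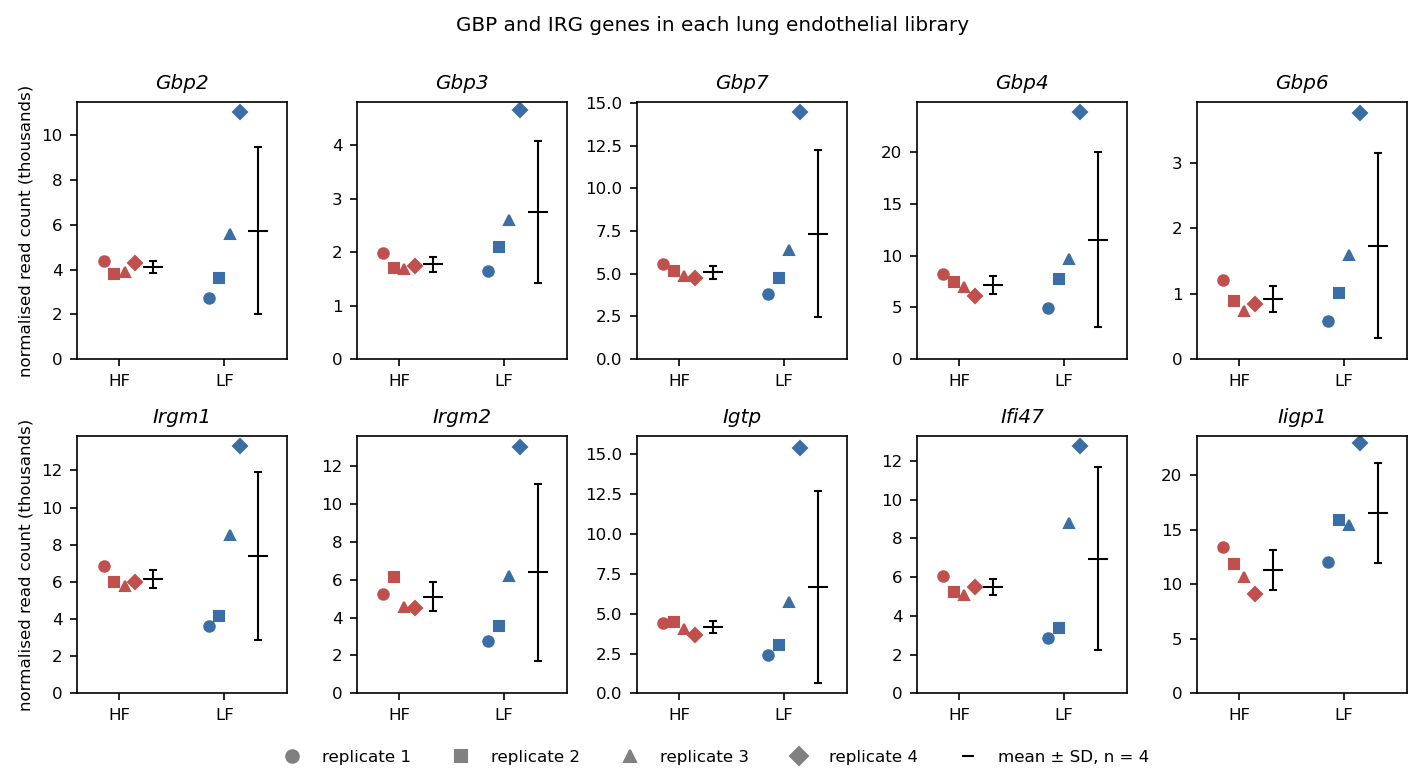
Normalised read counts of the 10 GBP and IRG genes on a linear axis, 1 panel per gene, with a point for each of the 4 HF and 4 LF libraries. The LF points spread wider than the HF points, and LF 4 is the highest point in all 10 panels.

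Of the GBPs on chromosome 3, Gbp2 encodes a GBP that carries a lipid anchor. It was at 4377, 3824, 3914 and 4274 in HF 1 to HF 4, and at 2712, 3629, 5579 and 11047 in LF 1 to LF 4. LF 1 and LF 2 were below every HF library and LF 3 and LF 4 above every one. The mean was 4097 ± 269 (SD, n = 4) in HF and 5742 ± 3733 (SD, n = 4) in LF. On the log2(value + 1) scale the fold, HF over LF as in all folds below, was 0.824 (95% interval 0.505 to 1.35), and limma's adjusted p over all genes tested was 0.752.

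Gbp3 was at 1976, 1697, 1684 and 1734 in HF and at 1650, 2089, 2603 and 4648 in LF. The 3 higher LF libraries were above all HF libraries, and LF 1 was below them. Its fold was 0.696 (0.480 to 1.01), with an unadjusted p of 0.0550 and an adjusted p of 0.460 by limma. Gbp7 was at 5553, 5187, 4847 and 4748 in HF and at 3788, 4747, 6405 and 14474 in LF. LF 4 was 3.82 times LF 1, and LF 2 lay just below the lowest HF library. Its fold was 0.794 (0.494 to 1.28; limma adjusted p = 0.697).

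On chromosome 5, Gbp4 had 8218, 7486, 6947 and 6140 in HF and 4992, 7741, 9637 and 23855 in LF. HF and LF overlapped, and LF 4 stood at 3.31 times the HF mean. The fold was 0.737 (0.432 to 1.26; limma adjusted p = 0.654). Gbp6, with the reservation on shared reads given above, had 1206, 892, 742 and 852 in HF and 582, 1010, 1589 and 3769 in LF. It had the widest LF range of the 10 genes, with LF 4 at 6.48 times LF 1. Its fold of 0.663 (0.351 to 1.25; limma adjusted p = 0.613) was the lowest of the 10.

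Among the regulatory IRGs, Irgm1 and Irgm2 had the smallest differences of the 10 genes between group means of log2 level. Irgm1 was at 6868, 5987, 5772 and 6015 in HF and at 3610, 4150, 8532 and 13343 in LF. Both lower LF libraries were below every HF library, and both higher ones above. Its fold was 0.956 (0.582 to 1.57; limma adjusted p = 0.949). Irgm2 was at 5230, 6121, 4563 and 4483 in HF and at 2767, 3533, 6193 and 13010 in LF, with a fold of 0.955 (0.548 to 1.66; limma adjusted p = 0.954). Igtp, the gene of the third regulator, was at 4395, 4492, 4041 and 3651 in HF and at 2421, 3045, 5759 and 15432 in LF. Its LF range was nearly that of Gbp6, 6.38-fold, and its fold was 0.817 (0.426 to 1.57; limma adjusted p = 0.799).

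Ifi47, which encodes another IRG, was at 6036, 5242, 5091 and 5512 in HF and at 2874, 3380, 8806 and 12762 in LF. It too had LF libraries on both sides of all HF libraries, and its fold was 0.950 (0.534 to 1.69; limma adjusted p = 0.949). Iigp1, the effector IRG, went differently. It was at 13439, 11886, 10685 and 9127 in HF and at 12037, 15889, 15405 and 22930 in LF. Here 3 LF libraries were above every HF library, LF 1 lay among the HF libraries, and HF 4 was the lowest of the 8. The means were 11285 ± 1827 in HF and 16565 ± 4576 in LF (SD, n = 4 each), with a fold of 0.693 (0.515 to 0.933). Iigp1 had the smallest unadjusted p of the 10 (0.0195), and its adjusted p was 0.351 by limma.

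By limma, 0 of the 10 genes passed an adjusted p of 0.05, as did 0 of all 17067 genes tested (0%). At an unadjusted p under 0.05 there was 1 of the 10, Iigp1, lower in HF. Among all genes 11.0% passed this, 4.67% lower and 6.36% higher in HF. Count tests on the recovered reads called 0 of the 10 with edgeR, which called 0 of all genes, and 0 of the 10 with DESeq2, which called 2.17% of all genes. Both count tests had 2 of the 10 at an unadjusted p under 0.05, Gbp3 and Iigp1, both lower in HF. Of all 17067 genes, edgeR had 1905 at that p (940 lower in HF) and DESeq2 2089 (1092 lower). The log2 fold changes of the 10 by the count tests were further from 0. Their median was -0.55 by edgeR and -0.56 by DESeq2, with Irgm1 at -0.27 and -0.28. The authors' deposited table gives log2 fold changes between -0.91 and -0.27 for the 10 genes, with adjusted p-values from 0.130 to 0.846, and 2.04% of the genes it tests are under 0.05. In no member were HF and LF free of overlap, which held for 5.43% of all genes. The median log2 fold change of the 10 was -0.31, and that of all genes was 0.02. All 10 were lower in HF, as were 46.8% of all genes tested.

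The spread within LF was wide for these genes. The highest HF library exceeded the lowest by 1.14 to 1.62 times, and the highest LF library exceeded the lowest by 1.90 times (Iigp1) to 6.48 times (Gbp6). The SD of log2 levels was larger in LF than in HF for all 10 genes and for 71.5% of all genes tested. The ratio of these SDs had a median of 7.0 over the members and 1.49 over all genes. Iigp1 had the lowest ratio of the 10, 1.62, and Ifi47 the highest, 9.73. The SD was also larger in LF for 18 of 18 further family genes tested (median ratio 3.496) and 14 of 14 endothelial markers (3.012). It was larger for 25 of 27 other targets of interferon gamma tested (5.401). It was larger for only 6 of 13 myeloid and other leukocyte markers (0.722) and 3 of 12 fibroblast and mural markers (0.8725). Single genes outside the members went above 9.73, such as Eng (16.5) and Ciita (17.7). The median of LF 4 over LF 1 was 4.26 for the members and 1.02 for all genes. LF 4 was the highest library for 15.2% of all genes, LF 1 the lowest for 24.9%, and both for 8.31%, against 9 of the 10 members. In 6 members (Gbp2, Gbp7, Irgm1, Irgm2, Igtp and Ifi47) LF 1 and LF 2 were below all HF libraries and LF 3 and LF 4 above them, an order found in 3.92% of all genes.

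Summed over the 10 genes, the level was 57298, 52817, 48285 and 46536 in HF 1 to HF 4 and 37434, 49213, 70508 and 135270 in LF 1 to LF 4. As a percentage of the summed endothelial markers it was 25.9%, 22.4%, 22.5% and 19.3% in HF and 24.0%, 28.3%, 32.1% and 52.5% in LF. On this scale LF 1 lay within the range of HF, and the other 3 LF libraries lay above it. Iigp1 made up 32.3% of the sum in LF 2, and without it the percentages were 15.6% to 19.8% in HF and 16.3%, 19.2%, 25.1% and 43.6% in LF 1 to LF 4. LF 1 and LF 2 then lay within the range of HF, and LF 3 and LF 4 above it. When all values were scaled to the endothelial markers, limma still called 0 of the 10 and 0 of all genes. The median log2 fold change of the members was then -0.48, and that of all genes -0.14.

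**Figure D2:**
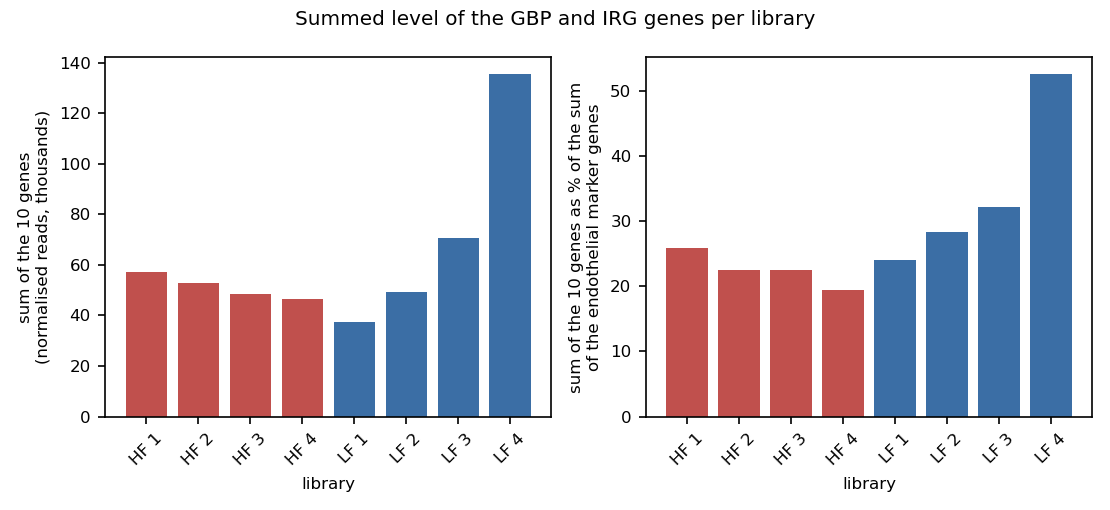
Bars give the summed normalised level of the 10 GBP and IRG genes in each library, in units of 1000 reads (left), and as a percentage of the summed level of 14 endothelial marker genes (right). LF 4 is the highest on both scales, at 135270 reads and 52.5%, and LF 1 is the lowest on the left but lies within the HF range on the right.

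The direction of the members depended on which LF libraries entered the fit. Without LF 1 and LF 2, 8 of the 10 genes were lower in HF at an adjusted p under 0.05 by limma, against 0.662% of all genes. Only Gbp7 (adjusted p = 0.050, above the threshold before rounding) and Irgm2 (0.0777) did not pass. The median log2 fold change was -0.95, with folds from 0.371 (Gbp6) to 0.594 (Iigp1). Ifi47, at a fold of 0.515, had the smallest adjusted p (0.00438). In that fit 0 of 14 endothelial markers were called, 1 of 8 general capillary markers was called higher, and 2 of 11 epithelial and 1 of 13 myeloid markers were called lower.

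Without LF 3 and LF 4, the sign changed for 8 of the 10. Gbp2, Irgm1, Irgm2, Igtp and Ifi47 were then higher in HF at an adjusted p under 0.05, which 14.0% of all genes also were. Their folds were 1.30 for Gbp2, 1.59 for Irgm1, 1.62 for Irgm2, 1.52 for Igtp and 1.75 for Ifi47. Gbp3 and Iigp1 kept a fold below 1, at 0.953 and 0.808, and neither passed. In the same fit 10 of 14 endothelial and 7 of 8 general capillary markers were called higher in HF, and 6 of 11 epithelial and 3 of 12 fibroblast and mural markers lower. Their part in the members' result was not tested. Without LF 4 alone limma called 0 of the 10 and 0.00586% of all genes, and 6 of the 10 had a positive log2 fold change. Iigp1 and Gbp3 had negative log2 fold changes in each of these fits.

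**Figure D3:**
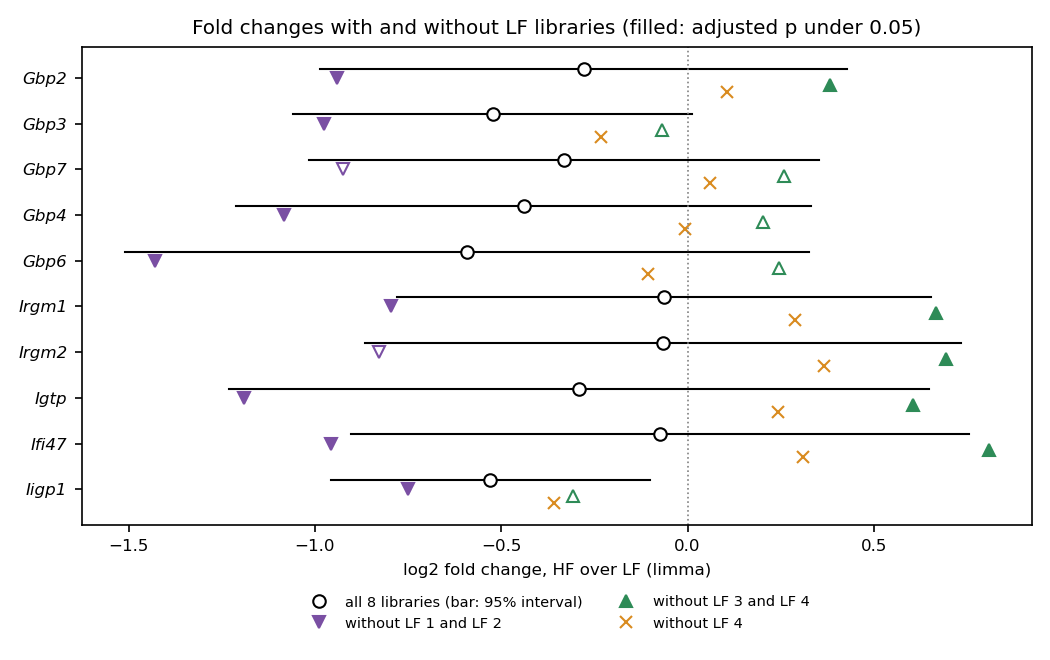
Log2 fold changes of HF over LF for the 10 genes with all 8 libraries (with 95% intervals) and with LF libraries left out. With all libraries each interval but that of Iigp1 crosses 0, and leaving out LF 1 and LF 2 or LF 3 and LF 4 moves most genes to opposite sides of 0.

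Per kilobase of exon, the HF means of normalised reads were highest for Ifi47 (2212 ± 168), Igtp (2050 ± 189) and Iigp1 (1938 ± 314), followed by Gbp2 (1628 ± 107) and Irgm2 (1382 ± 206). Irgm1 (1060 ± 83.3), Gbp4 (960 ± 117), Gbp7 (906 ± 65.0), Gbp3 (543 ± 42.1) and Gbp6 (155 ± 33.4) came after them (SD, n = 4). In this order, neighbours with ranges apart in the 4 HF libraries were Irgm2 above Irgm1, Gbp7 above Gbp3, and Gbp3 above Gbp6. The other neighbours overlapped. In LF the order by mean was Igtp, Iigp1, Ifi47, Gbp2, Irgm2, Gbp4, Gbp7, Irgm1, Gbp3 and Gbp6, and all neighbours overlapped.

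**Figure D4:**
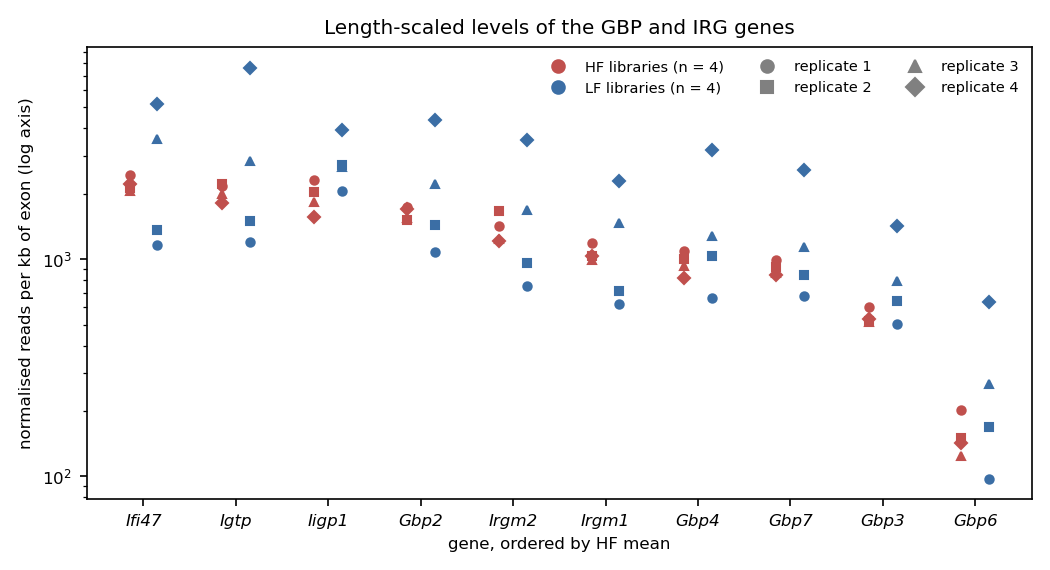
Normalised reads per kilobase of exon for the 10 genes on a log axis, ordered by HF mean, with a marker for each replicate. Ifi47, Igtp and Iigp1 have the highest HF means, 2212 to 1938, and Gbp6 the lowest, 155.

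Within the members, each gene's log2 level followed the mean of the other 9 over the 8 libraries, with Pearson correlations of 0.916 (Ifi47) to 0.989 (Gbp7), and 0.762 for Iigp1. These are descriptions, because genes measured in the same library share its depth and preparation. Without LF 4 and LF 1 the correlation of Iigp1 was 0.377, and those of the other 9 were 0.689 (Irgm2) to 0.996 (Gbp7).

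A further 19 genes of the same families had a row, and 18 passed the filter on low values. Of these, 16 were lower and 2 higher in HF, 0 passed limma's adjusted threshold, and 3 lower and 1 higher had an unadjusted p under 0.05. DESeq2 called 1 of them lower, as it did 0.596% of all genes, and edgeR called 0. F830016B08Rik, an IRG relative, was at 376, 260, 301 and 321 in HF and at 449, 552, 518 and 749 in LF. Every HF library lay below every LF library, as in 1.96% of all genes. F830016B08Rik had a fold of 0.561 (limma unadjusted p = 0.000405, adjusted p = 0.162). It was the family gene called by DESeq2 (adjusted p = 0.00183), and the authors' deposited table gives it an adjusted p of 0.00317. Gbp10, which shares 84.1% of its 50-base stretches with other genes, ran from 39.0 in LF 1 to 680 in LF 4, and Tgtp1, which shares 81.2% of its stretches, from 366 to 3477, so both levels are uncertain. Gbp2b and Irgq did not follow this order, and LF 4 was below LF 1 in both. Without LF 1 and LF 2, 13 of the 18 were called lower (0.662% of all genes), and without LF 3 and LF 4, 2 were called higher (Tgtp1 and Tgtp2; 14.0% of all genes) and 1 lower (F830016B08Rik), against 6.02% of all genes called lower in that fit.

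The list of interferon receptors and signal components had 21 genes tested, of which 14 were higher and 7 lower in HF, with 0 called by limma, edgeR or DESeq2 and 1 at an unadjusted p under 0.05 by limma. Without LF 1 and LF 2, limma called 1 of the 21 higher and 1 lower, against 528 and 113 of all 17067 genes. Without LF 3 and LF 4, limma called 8 higher, against 14.0% of all genes, and 1 lower, against 6.02%. Ifngr1 and Irf1 were among the 8. Ifng itself had 0 to 3.15 normalised reads in all libraries. Irf1, the gene of an interferon-induced transcription factor, was at 19354, 15210, 17537 and 17486 in HF and at 10268, 12885, 18917 and 22157 in LF. Ifngr1, which encodes the ligand-binding receptor chain, had a fold of 1.27 (0.989 to 1.62; limma adjusted p = 0.472), and Jak1 one of 1.04 (0.849 to 1.28; adjusted p = 0.871).

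Socs1, which encodes an inhibitor of JAK kinases, had the opposite order. It was at 596, 643, 727 and 529 in HF, at 978 and 784 in LF 1 and LF 2, and at 262 and 284 in LF 3 and LF 4. LF 1 and LF 2 were above all HF libraries, and LF 3 and LF 4 below. Its fold over all libraries was 1.27 (0.732 to 2.19; limma adjusted p = 0.730). When LF 1 and LF 2 were left out, limma called Socs1 higher in HF, with a log2 fold change of 1.18 (adjusted p = 0.00327). When LF 3 and LF 4 were left out, limma called it lower, at -0.50 (adjusted p = 0.0374). Both directions follow from the order of its libraries, so these calls are no test of direction.

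Of 27 other targets of interferon gamma tested, 5 were higher and 22 lower in HF, 0 passed limma, and 0 had an unadjusted p under 0.05, with edgeR and DESeq2 calling 0. LF 4 was the highest library in 25 of them. Without LF 1 and LF 2, 13 were called lower, against 0.662% of all genes. Without LF 3 and LF 4, 11 were called higher, against 14.0% of all genes. Cxcl10, which encodes a chemokine for activated T cells, was at 295, 129, 188 and 174 in HF and at 139, 203, 475 and 629 in LF. Ido1, the gene of a tryptophan-degrading enzyme, was 8.53 times as high in LF 4 as in LF 1, and its fold of HF over LF was 0.597 (0.281 to 1.27; limma adjusted p = 0.595).

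**Figure D5:**
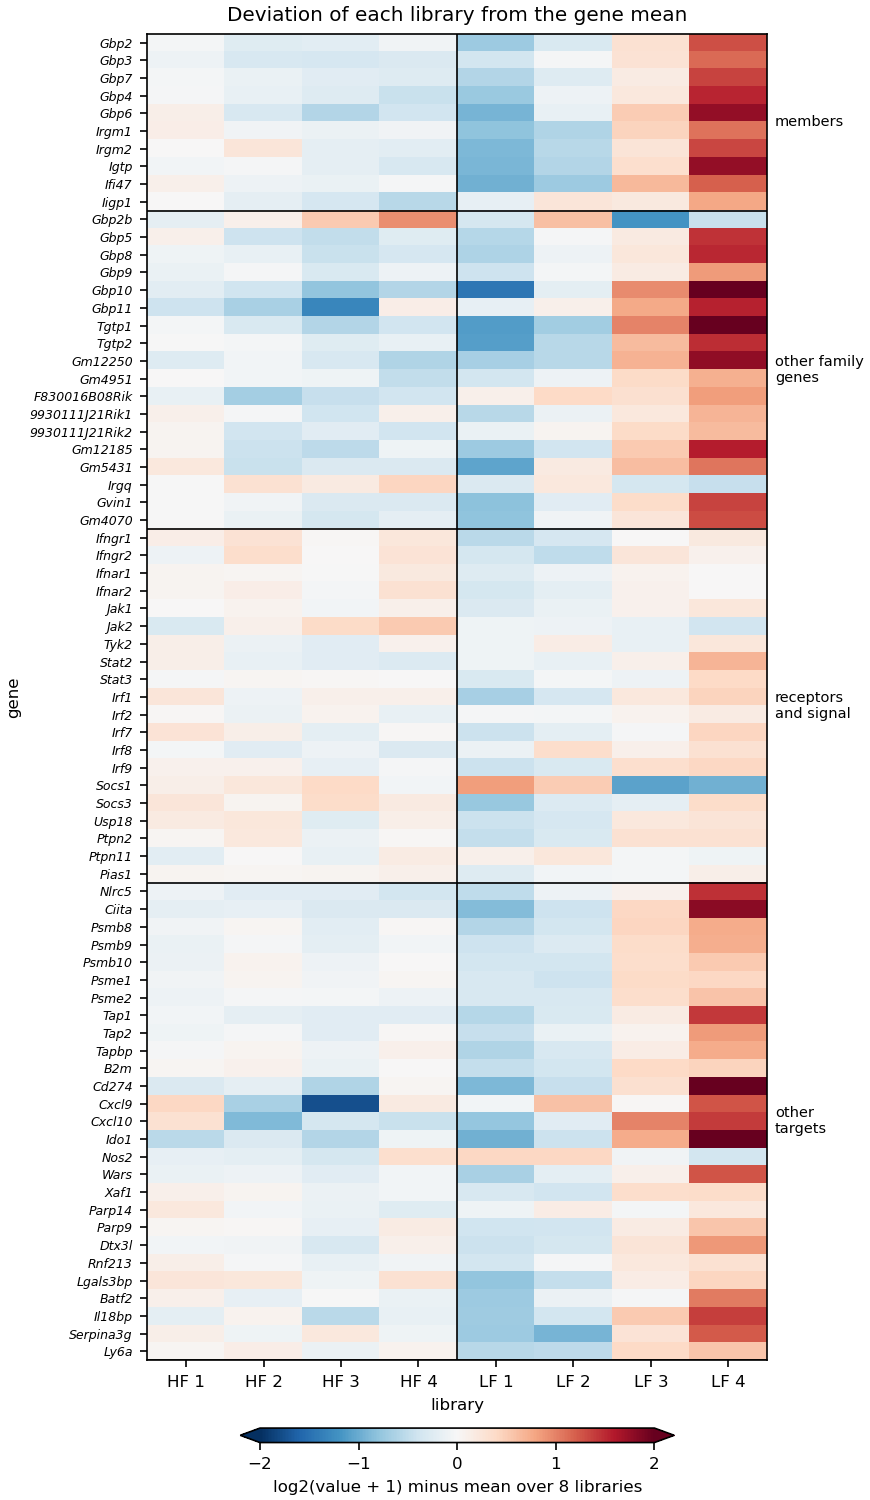
Colours give the log2(value + 1) of each gene in each library minus its mean over the 8 libraries, in log2 units with ends of the scale at -2 and 2, for the members, the other tested genes of the families, the interferon receptors and signal components (1 gene left out), and other targets. LF 1 is below and LF 4 above the mean in most rows for the members, the other family genes and the other targets, while Socs1 and Gbp2b are low in LF 3.

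Partners of these GTPases in the targeting of vacuoles and in inflammasomes numbered 24 tested, with 16 higher and 8 lower in HF, 0 called by limma and edgeR and 1 lower by DESeq2. At an unadjusted p under 0.05 there were 4 lower and 1 higher by limma. Lgals3, whose product binds damaged vacuoles, was at 339, 342, 426 and 320 in HF and at 577, 505, 537 and 498 in LF, with no overlap. Its fold was 0.672 (0.550 to 0.820; limma adjusted p = 0.163), and it was the gene of this list called by DESeq2 (adjusted p = 0.00808). Casp4, which encodes the caspase that senses lipopolysaccharide, had a fold of 0.725 (0.554 to 0.951; limma adjusted p = 0.372). Enzymes of prenylation, which attach the lipid anchor of some GBPs, and related large GTPases numbered 17 tested, with 10 higher and 7 lower in HF, 0 called by any of the 3 tools and 0 at an unadjusted p under 0.05 by limma.

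Genes were ranked by how alike their log2 levels were to the mean log2 deviation of the members over the 8 libraries. Members, genes with a mean under 100, and genes with a clone, accession or pseudogene name were left out of this ranking. Of the first 8, those given here are Gvin1 (Pearson r = 0.996), Ciita (0.994), Tap1 (0.987), Tgtp1 (0.984), Gbp10 (0.982), Olfr56 (0.980) and Zbp1 (0.978). Without LF 4 and LF 1 the correlations were 0.887 (Gbp10) to 0.994 (Tap1). Olfr56 shares exon bases with the member Ifi47, and Gbp10 shares 73.3% of its 50-base stretches with the member Gbp6. Gvin1 shares 99.2% of its 50-base stretches with other genes, mostly with Gm4070, which is no member. Ciita, the gene of the master regulator of MHC class II transcription, was at 1462, 1485, 1369 and 1356 in HF and at 913, 1245, 2208 and 5818 in LF.

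Markers of endothelial cells, their subtypes and other cells were read in the same libraries. Of 14 endothelial markers 13 were higher and 1 lower in HF, with 0 called by limma, edgeR or DESeq2. The lower marker was Erg (limma unadjusted p = 0.00746). All 8 general capillary markers were higher in HF, with 4 at an unadjusted p under 0.05 and 0 called by limma, 0 by edgeR and 1 by DESeq2. Of 8 aerocyte markers 5 were higher and 3 lower, with 0 called and 0 at an unadjusted p under 0.05. Sums over 14 T and NK cell markers were 81.3 to 295 in HF and 160 to 267 in LF, with Cd3d, Cd3e, Cd3g, Cd8a, Klrb1c, Ncr1, Eomes and Tbx21 at 0 in at least 1 library. Sums over 16 myeloid and other leukocyte markers were 3851 to 7152 in HF and 6715 to 8550 in LF, and 13 of 13 tested were lower in HF, with 0 called by limma, edgeR or DESeq2 and 2 at an unadjusted p under 0.05 by limma. Epithelial markers were lower in HF in 10 of 11 tested and fibroblast and mural markers in 11 of 12. Limma and edgeR called 0 in both lists and DESeq2 1 in each, and 3 epithelial and 5 fibroblast and mural markers had an unadjusted p under 0.05 by limma. In LF 4, the library highest for the members, the T and NK sum was 165. The myeloid sum (7354), the epithelial sum (27464) and the fibroblast and mural sum (5840) were each the second highest of the 8 libraries there. The part of other cells in the levels of the members was not tested.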

How the data were processed

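RNA-seq of 8 libraries, 4 HF and 4 LF, was analysed. The members and lists were chosen with earlier results of these data known. STAR 2.6.1b, featureCounts 2.0.0 and DESeq2 1.24.0 had been used, per the submitters' processing notes, which give no roles. The sources used here give no build, annotation or strand setting. The authors deposited normalised counts, a signal that is not scaled for length. Per the file headers, the deposited table also has the authors' log2 fold change, a test statistic (a score), p-value and adjusted p-value. Dividing out a size factor per library (0.820 to 1.27) gave back whole reads for 100% of values, within 0.01 reads. The count tests on them called 0 genes (edgeR 4.0.16) and 313 (DESeq2 1.42.0). All 34899 gene IDs matched GENCODE M21, and 0 columns of per-sample values went unused.

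Genes with at least 10 normalised reads in at least 4 libraries (17067) were tested with limma 3.58.1 in R 4.3.3 on log2(value + 1), two-sided, with a mean-variance trend, no covariates and Benjamini-Hochberg adjustment at 0.05. The method was tested on simulated data with the same dispersion (spread beyond sampling noise) in every gene and both groups. The simulation did not hold the wider spread seen within LF, so it does not cover that. Folds understate changes of low genes. No libraries agreed within sampling noise (chi-square per degree of freedom 10.1 to 51.3). Named genes were the 10 members, the 19 other family genes, up to 4 genes with the smallest p per list, 11 genes always reported, and the 8 most alike in pattern with a mean of at least 100. Clone, accession and pseudogene names were left out of those 8. Levels depend on read number, and reads without molecular identifiers are not independent molecules. Of the named genes, 1 is not reported here.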

Additional observations from a re-analysis of the deposited data

How the results depend on the processing

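Other count models, pseudocounts (0.5 or 5), filters, rescaling and quantile normalisation left 0 members called, and all 10 lower in HF. The members' median log2 fold change moved from -0.31 to -0.55 by edgeR and -0.56 by DESeq2, with Irgm1 at -0.27 and -0.28, Irgm2 at -0.32 and -0.33, Igtp at -0.68 and -0.69, and Ifi47 at -0.35 and -0.36 by the 2 tools. DESeq2 called 313 of all genes and 5 of the other list genes, and dropping the filter called 1 gene. Leaving out LF libraries moved the members most. Fits without a pair of LF libraries describe the split within LF and are no test of direction. Without LF 1 and LF 2 together, 641 genes, 8 members and 34 other list genes were called, the members' median log2 fold change was -0.95, and Gbp2 was at -0.94, Gbp3 at -0.98, Gbp4 at -1.08, Gbp6 at -1.43, Irgm1 at -0.80, Igtp at -1.19, Iigp1 at -0.75 and Ifi47 at -0.96. Without LF 3 and LF 4 together, 3421 genes, 5 members and 68 other list genes were called, the median was 0.32, and Gbp2 was at 0.38, Gbp4 at 0.20, Gbp6 at 0.24, Gbp7 at 0.26, Irgm1 at 0.67, Irgm2 at 0.69, Igtp at 0.61 and Ifi47 at 0.81. Leaving out each of the 8 libraries in turn called 0 to 1 of all genes and 0 members. The members' median log2 fold change then ranged from -0.62 without LF 1 to 0.083 without LF 4. The ranges were -0.57 to 0.11 for Gbp2, -0.73 to -0.23 for Gbp3, -0.76 to -0.01 for Gbp4, -1.0 to -0.11 for Gbp6, -0.58 to 0.061 for Gbp7, -0.34 to 0.29 for Irgm1, -0.38 to 0.37 for Irgm2, -0.65 to 0.24 for Igtp, -0.67 to -0.36 for Iigp1 and -0.41 to 0.31 for Ifi47. The cause was not tested. The scaling to endothelial markers was chosen after seeing the data. With the replicate number as a block, 0 members and 0 of all genes were called, and the smallest adjusted p of a member was 0.452. Same-numbered libraries had correlations of deviations between -0.222 and 0.185, which gave no sign that the numbers pair the samples. These correlations cannot exclude a pairing.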
